A study of Mus musculus with 10 samples.

Results

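The TRiC chaperonin, also called CCT, was examined through its 8 constitutive subunit genes in the hippocampus of Dp5/Dp1 mice. These genes, Cct8, Tcp1, Cct2, Cct3, Cct4, Cct5, Cct6a and Cct7, were taken by name among the 19938 genes measured, and each was read by 1 probe set. Whole hippocampus was taken from 5 control and 5 Dp5/Dp1 males of 16 weeks, littermates on a C57BL/6N background by the labels and C57BL/6J by the study's methods, and each mouse gave 1 array. Dp5/Dp1 mice carry the Dp5Yah and the Dp1Rhr duplications of mouse chromosome 16 in every cell of the body, the first between loxP sites placed in App and Runx1, whereas the controls carry neither. Titles of the mutant arrays name only Dp5Yah with the Dp5Dp1 model in brackets, and those of the control arrays state that they are a reanalysis. The controls were shared with mice of that cross carrying a single duplication, not analysed here. Of the 8 genes only Cct8 lies in a duplicated interval (Dp5Yah) and is present in 3 copies in Dp5/Dp1. The comparison therefore asked how far Cct8 mRNA followed its copy number, and whether the mRNAs of its 2-copy partners moved with it.

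TRiC folds newly made cytosolic proteins inside a closed chamber, at the cost of ATP. It is built of stacked rings in which every subunit has a fixed place, so a working complex needs the subunits in matched amounts. Actin and tubulin are its best known clients, and proteins with WD40 repeats, such as G protein beta subunits, depend on it too. The theta subunit, encoded by Cct8, sits in the ring between the zeta subunit (Cct6a) and the eta subunit (Cct7).

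The 8 genes lie on different chromosomes (GRCm38). Cct8 spans 87483325 to 87495869 of chromosome 16, on the minus strand, and its annotated end overlaps that of the neighbouring gene Usp16 (87454985 to 87483515). Tcp1 lies on chromosome 17, Cct2 on 10, Cct3 on 3, Cct4 on 11, Cct5 on 15, Cct6a on 5 and Cct7 on 6. The 100 bases before the annotated start are shown for Cct8 and for 3 of the 2-copy genes to let the promoters of a triplicated and of 2-copy subunits be compared. Sequences are from RefSeq, 5′ to 3′, and capitals mark matches on either strand to 4 motifs. These were the ETS motif with the letters CCGGAAG, the GC box spelled GGGCGG in the search, the CCAAT box by the letters of its name, and the core of a heat shock element, TTCNNGAA or GAANNTTC. No 2 marked matches overlap.
Cct8 (chr16:87495870-87495969, minus strand): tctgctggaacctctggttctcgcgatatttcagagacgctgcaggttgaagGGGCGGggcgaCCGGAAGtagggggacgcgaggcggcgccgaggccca
Cct2 (chr10:117063853-117063952, minus strand): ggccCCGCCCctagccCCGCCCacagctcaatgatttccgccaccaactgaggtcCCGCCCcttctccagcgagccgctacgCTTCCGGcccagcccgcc
Cct6a (chr5:129787256-129787355, plus strand): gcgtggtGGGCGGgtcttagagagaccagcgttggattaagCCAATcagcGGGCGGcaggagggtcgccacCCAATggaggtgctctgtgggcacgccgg
Cct5 (chr15:31601847-31601946, minus strand): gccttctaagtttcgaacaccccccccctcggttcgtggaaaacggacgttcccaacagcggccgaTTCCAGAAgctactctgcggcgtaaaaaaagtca

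Searched over the 250 bases before the start, a GC box was present in all 7 subunit genes with a promoter in the table used here, against 32.7% of all 32851 promoters. The ETS motif was found in Cct8 and Cct2, against 6.91% of all promoters, and ended 30 and 11 bases before the start. CCAAT boxes were found in Tcp1, Cct3, Cct6a and Cct7, against 33.8% of promoters. The heat shock core was found in Cct5 alone, against 12.8% of promoters. These matches are a description of the letters in this window. The promoter of Cct4 was not analysed here.

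Cct8 was overexpressed in Dp5/Dp1. In controls 1 to 5 its RMA log2 expression, a background-corrected and quantile-normalized array signal, was 10.58, 10.50, 10.66, 10.52 and 10.51. In Dp5/Dp1 mice 1 to 5 it was 10.91, 10.99, 11.05, 11.05 and 10.97. Every Dp5/Dp1 array lay above every control, a separation in this direction that 0.762% of all genes showed. The means were 10.55 ± 0.07 (SD, n = 5) and 10.99 ± 0.06 (SD, n = 5), a log2 difference of 0.44 ± 0.04 (SE; 1.36-fold; limma adjusted p = 0.000442 over all genes). At an adjusted p under 0.05 limma called 0.206% of all genes, 0.201% higher and 0.00502% lower. An exact two-sided permutation test of the arrays gave p = 0.00794, the smallest that 252 assignments allow. The 95% interval of the difference ran from 0.35 to 0.53, which is a 1.28- to 1.45-fold rise and lies below the log2 value of 0.585 that 3 copies over 2 would give in full. A difference below that value was not particular to Cct8. In the Dp5Yah interval, read by the brightest probe set of each gene, the largest was 0.66, for Ifnar2, and the next 0.50, for Il10rb. Ltn1, at 0.38 by that set, was at 0.51 as the mean of all its probe sets. Whether the array signal understated the rise in mRNA was not tested.

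None of the 7 subunits present in 2 copies passed the test. Tcp1, the alpha subunit after which the family is named, was at 10.99, 10.87, 10.86, 10.89 and 10.83 in controls and at 10.77, 10.87, 10.88, 10.87 and 10.83 in Dp5/Dp1. Cct2, the beta subunit, was at 10.94, 11.08, 11.23, 10.97 and 10.95 in controls and at 11.13, 11.03, 11.02, 11.01 and 10.89 in Dp5/Dp1. For both genes the groups overlapped, with the highest array among the controls. Cct3, the gamma subunit, was at 10.43, 10.21, 10.55, 10.48 and 10.47 in controls and at 10.37, 10.27, 10.56, 10.47 and 10.61 in Dp5/Dp1. Cct4, the delta subunit, was at 10.36, 10.07, 10.57, 10.32 and 10.32 in controls and at 10.25, 10.27, 10.39, 10.42 and 10.35 in Dp5/Dp1. The controls of Cct4 spanned more than all its Dp5/Dp1 arrays, with control 2 the lowest and control 3 the highest of the 10.

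Cct5, the epsilon subunit, was at 10.44, 10.31, 10.42, 10.40 and 10.35 in controls and at 10.25, 10.30, 10.40, 10.33 and 10.40 in Dp5/Dp1. Cct6a, the zeta subunit, was at 11.03, 10.98, 11.05, 11.10 and 10.97 in controls and at 10.84, 10.97, 11.03, 10.97 and 11.06 in Dp5/Dp1. Cct7, the eta subunit, was at 10.54, 10.35, 10.62, 10.52 and 10.52 in controls and at 10.35, 10.38, 10.53, 10.47 and 10.45 in Dp5/Dp1. In these 3 genes and in Tcp1, Dp5/Dp1 mouse 1 was the lowest of the 10 arrays, and all groups overlapped.

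**Figure D1:**
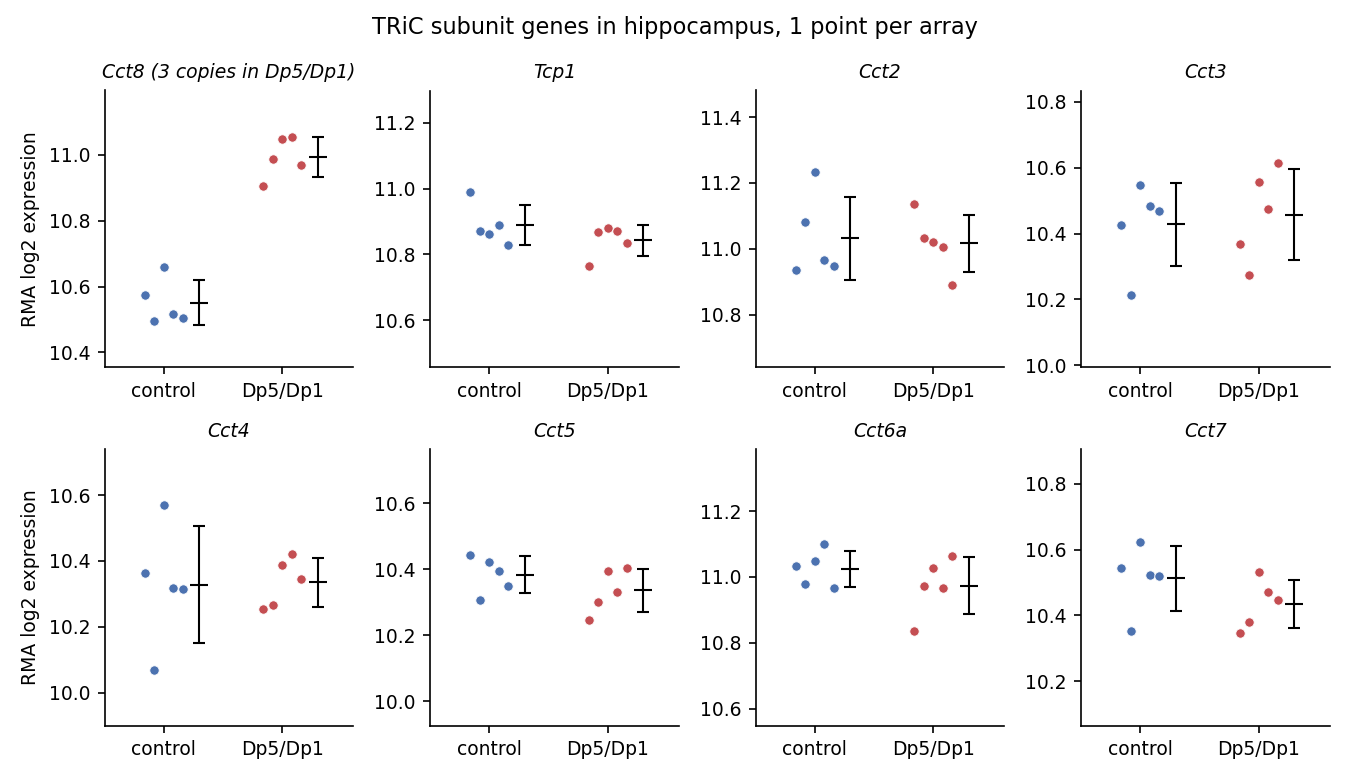
RMA log2 expression of the 8 TRiC subunit genes by genotype; points are single arrays, in the order of the replicate numbers, with the group mean and SD beside it (n = 5), and every axis spans the same range of log2 values from a different start. The groups separate for Cct8, with means of 10.55 and 10.99, and overlap for the other 7 genes.

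The log2 differences of the 2-copy subunits lay close to 0. They ran from -0.08 ± 0.05 (SE) for Cct7, through -0.05 ± 0.04 for Cct6a, Cct5 and Tcp1 and -0.02 ± 0.06 for Cct2, to 0.0073 ± 0.07 for Cct4 and 0.03 ± 0.07 for Cct3. Their limma adjusted p lay between 0.852 (Cct7) and 0.991 (Cct4). Of the 7, 5 had a lower mean in Dp5/Dp1, as had 48.5% of all genes, and 0 had an unadjusted p under 0.05, against 6.06% of all genes. FCROS, the rank method that the study used, passed Cct8 (f-value 0.998) and 0 of the 7, against 5.06% of all genes. The most extreme bounds were -0.19 for Cct7 and 0.19 for Cct3, so that a rise as large as the lower bound of Cct8 lay outside the 95% interval of each. Intervals this narrow were common, since 81.8% of all genes had one within 0.2 of 0 on both sides. A p that misses the threshold does not show that these mRNAs were equal in the groups. The direction of Cct2, Cct3 and Cct4 turned with single arrays or settings. Without control 3 the difference of Cct2 was 0.034, and without control 2 that of Cct3 was -0.024 and that of Cct4 -0.057.

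**Figure D2:**
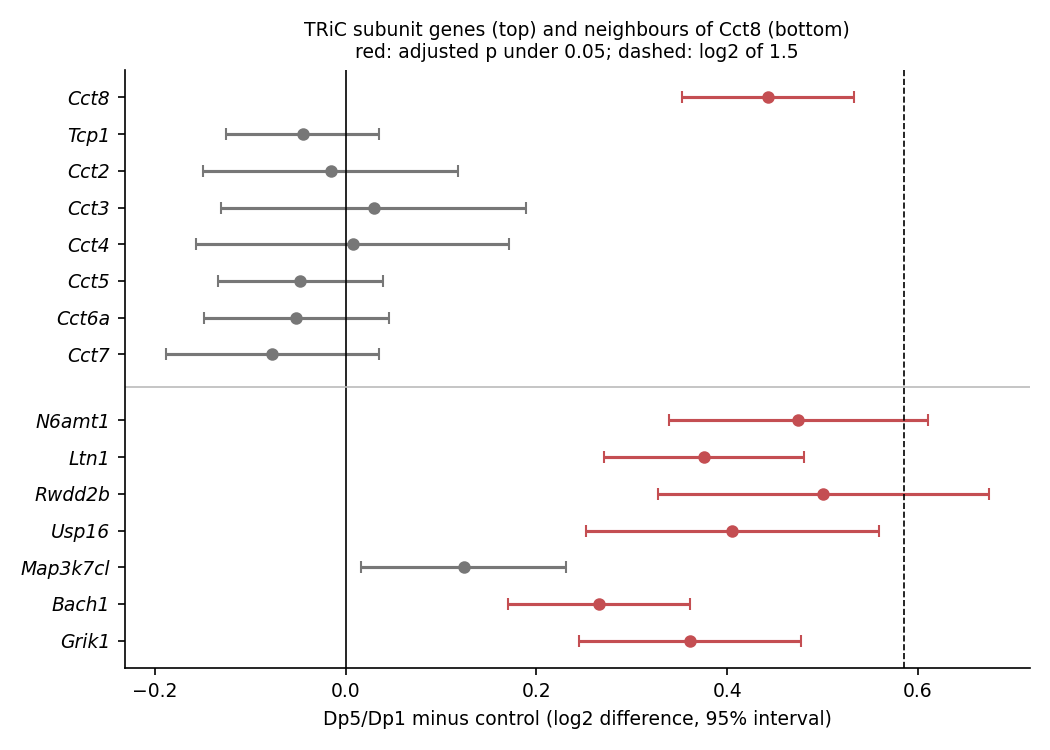
Log2 difference of Dp5/Dp1 minus control with its 95% interval for the 8 TRiC subunit genes (top) and for 7 neighbours of Cct8 in the Dp5Yah interval (bottom); genes that passed the test are red, and the dashed line is the log2 of 1.5. Cct8 at 0.44 lies within the range of its neighbours, which runs from 0.12 for Map3k7cl, not called, to 0.50 for Rwdd2b. The other subunits lie between -0.08 and 0.03.

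The change of Cct8 relative to its partners was then tested directly, on the log2 ratio of Cct8 to another gene within each array. The ratio of Cct8 to the subunit rose for all 7 by limma fitted over the ratios of Cct8 to every other gene. The rise was largest over Cct7, the ring neighbour of the theta subunit (log2 change of the ratio 0.52 ± 0.05 SE, 1.43-fold, adjusted p = 8.99e-07), and smallest over Cct3 (0.41 ± 0.07, 1.33-fold, adjusted p = 1.18e-05). Over the ring neighbour Cct6a it was 0.49 ± 0.06 (adjusted p = 8.99e-07). None of the 7 ratios overlapped between the groups, but Cct8 by itself did not overlap either. The share of all genes with such a ratio was not computed. The 7 ratios share Cct8, and 99.4% of all genes passed the same limma test, so the 7 calls say that Cct8 rose against them as it did against almost any gene. The 95% intervals of the 7 ratios overlapped one another.

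Averaged over the 7 partners, subunit mRNA differed little between the groups, and the balance within an array shifted by the rise of Cct8. The mean of the 7 genes was 10.68, 10.55, 10.76, 10.67 and 10.63 in controls and 10.56, 10.58, 10.69, 10.65 and 10.66 in Dp5/Dp1, with a difference of -0.03 ± 0.04 (SE). Cct8 minus that mean, a balance within each array, was -0.10, -0.06, -0.10, -0.15 and -0.12 in controls and 0.34, 0.40, 0.36, 0.41 and 0.31 in Dp5/Dp1. The groups lay far apart, from -0.06 in the highest control to 0.31 in the lowest Dp5/Dp1 array. The balance was -0.11 ± 0.04 (SD, n = 5) in controls and 0.37 ± 0.04 (SD, n = 5) in Dp5/Dp1, a shift of 0.47 ± 0.02 (SE; 1.39-fold). It is given without a test because the genes were chosen. Only the shift between groups can be read, since probe sets of different genes differ in brightness and levels cannot be set against each other.

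**Figure D3:**
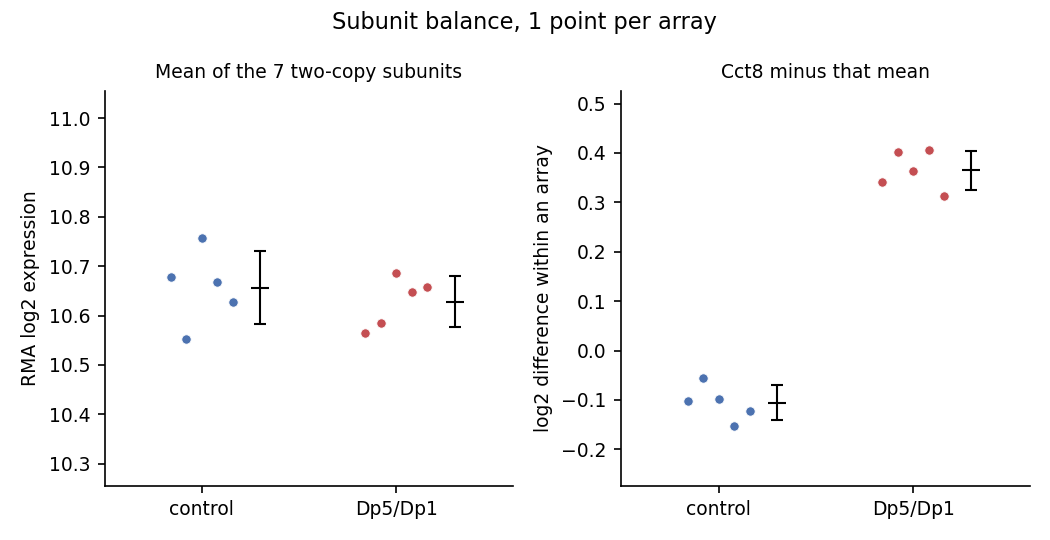
Left, the mean RMA log2 expression of the 7 TRiC subunits present in 2 copies; right, Cct8 minus that mean within each array (log2 difference). Points are single arrays with the group mean and SD beside them (n = 5), and both axes span the same range. The left groups overlap around 10.6, and the right groups lie at -0.11 and 0.37.

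The arrays also shared variation in TRiC subunits within each group. Control 3 was the highest control for 5 of the 8 genes (Cct8, Cct2, Cct3, Cct4 and Cct7), whereas it was the highest control for 24.1% of all genes. Control 2 was the lowest control for 5 (Cct8, Cct3, Cct4, Cct5 and Cct7), against 18.5% of all genes. Taken as deviations from the group means over the 10 arrays, Cct8 followed the mean of the 7 other subunits with a Pearson r of 0.83, a description of arrays that share 1 normalization. Cct7 (0.94), Cct4 (0.88), Cct5 (0.81), Cct3 (0.72) and Cct6a (0.55) followed the mean of the remaining 2-copy subunits, Tcp1 did so less closely (0.23), and Cct2 had an r of -0.19. Pearson r of all other bright genes with the mean of the 7 had a median of 0.04 and exceeded 0.8 in 1.58% of them.

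Heat shock genes were high on the same control array. Hspa1a, an inducible HSP70, was at 8.27, 8.63, 10.19, 8.58 and 8.40 in controls and at 8.57, 8.68, 9.24, 8.95 and 8.55 in Dp5/Dp1. Dnajb1, an HSP40 partner of HSP70, was at 8.73, 8.93, 10.12, 8.96 and 8.85 in controls and at 8.66, 8.99, 9.38, 9.24 and 8.73 in Dp5/Dp1. Control 3 stood above all other arrays for both. Of the 20 measured genes of the cytosolic HSP70 and HSP90 system, control 3 was the highest control for 16, against 24.1% of all genes. It was the highest of all 10 arrays for 11 of them, and for 2441 of all 19938 genes. The mean of the list was 10.60 on that array and between 10.11 and 10.31 on the others, with 10.31 in Dp5/Dp1 mouse 3. That mouse was also the highest of the Dp5/Dp1 group for Hspa1a and Dnajb1. The part of control 3 in the subunit results was measured by leaving its array out. The difference of Cct8 was then 0.47 and that of the mean of the 7 subunits -0.0034.

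**Figure D4:**
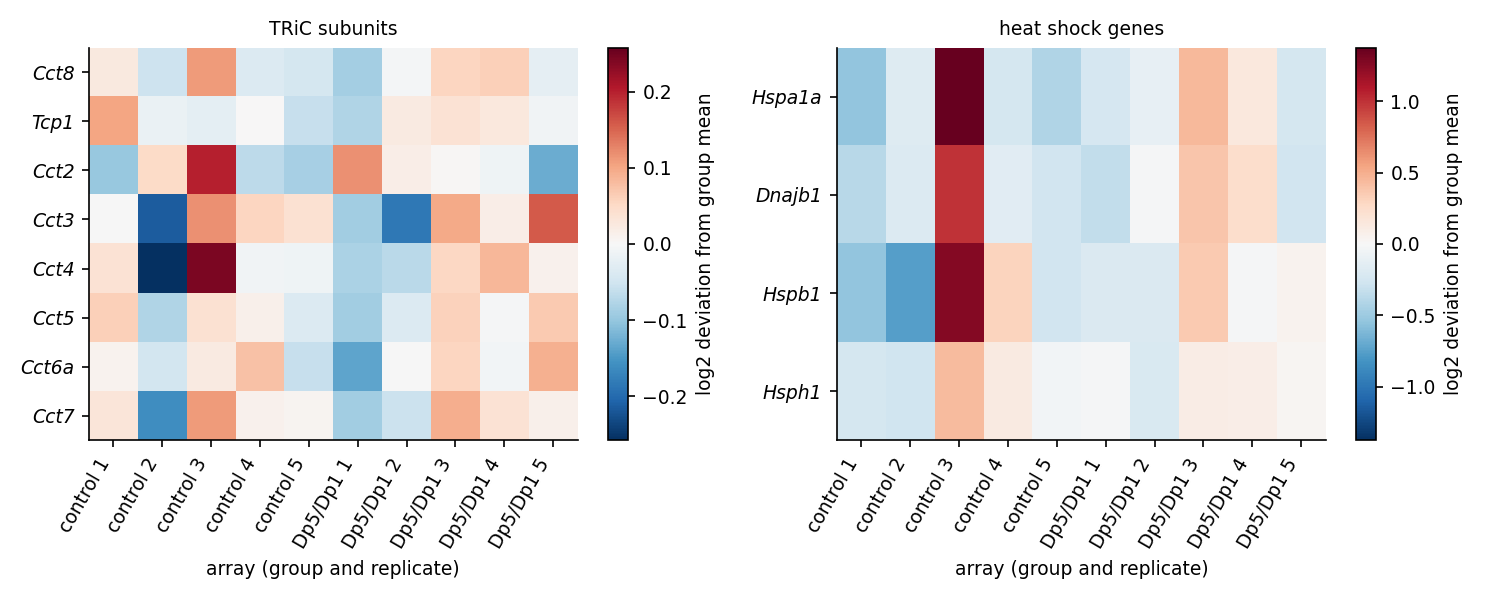
Deviation of each array from its group mean (log2) for the 8 TRiC subunit genes (left) and for 4 heat shock genes, Hspa1a, Dnajb1, Hspb1 and Hsph1 (right); rows are genes, columns the 10 arrays, and the colour scales differ between the panels. Control 3 is above its group mean for 7 of the 8 subunits and for all 4 heat shock genes.

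Within the Dp5Yah interval Cct8 was 1 of 25 genes called, all higher, whereas 0.201% of all genes were called higher. The difference of Cct8 ranked 14th of the 82 measured genes between Cyyr1 and Clic6, whose median difference was 0.05. A list of 42 of these genes, chosen with results known, held all 25 calls and had a median of 0.36, with Cct8 ranked 13th. Of the 40 genes not on that list, among them Cldn8, Cldn17 and keratin-associated genes, 37 were in the dimmest 40% of all genes. The median of the 40 was 0.00061. Those not as dim were Gm10785 (0.45), Cyyr1 (0.42) and Krtap19-4 (0.03), none of them called. The full count was made after the data were seen. Of 7 named neighbours of Cct8, 6 rose, but with the replicate number as a block N6amt1 and Ltn1 alone remained called (both adjusted p = 0.0422). N6amt1, a methyltransferase, rose by 0.47 ± 0.06 (limma adjusted p = 0.00653), Rwdd2b by 0.50 ± 0.08 (adjusted p = 0.025), and Grik1, a kainate receptor subunit, by 0.36 ± 0.05 (adjusted p = 0.0153). Ltn1, a ubiquitin ligase that clears stalled nascent chains, and Usp16, a histone deubiquitinase, rose as well, by 0.38 and 0.41. Averaged over all its probe sets, Ltn1 rose by 0.51 (limma adjusted p = 0.000259). Bach1, a repressor of antioxidant genes, rose by 0.27 ± 0.04 (adjusted p = 0.0321), but when each of the 10 arrays was left out in turn its call held in 1 of the 10 cases, that of Usp16 in 2, that of Rwdd2b in 4 and that of Grik1 in 8. Map3k7cl did not pass (0.12 ± 0.05, adjusted p = 0.806). Whether signal from the overlapping ends of Usp16 and Cct8 entered either probe set was not tested.

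Partners that work with TRiC did not pass the test. Of 75 measured genes among 82 partners, clients and other chaperones, limma adjusted over all genes called 0, against 0.206% of all genes. At an unadjusted p under 0.05 there were 5 higher and 2 lower, against 3.39% and 2.67% of all genes. FCROS passed 5, against 5.06% of all genes. The groups overlapped for all 75, whereas 0.762% of all genes lay apart with Dp5/Dp1 above and 0.321% with Dp5/Dp1 below. The median difference was 0.0052, against 0.0019 over all genes. Prefoldin hands unfolded actin and tubulin to TRiC, and its 6 genes had a higher mean in Dp5/Dp1, with a median difference of 0.06. Pfdn4 was at 6.65, 6.67, 6.74, 6.70 and 6.60 in controls and at 6.84, 6.74, 6.77, 6.70 and 6.83 in Dp5/Dp1 (log2 difference 0.10 ± 0.04, adjusted p = 0.806). Pfdn5 varied most, with a difference of 0.17 ± 0.11 (adjusted p = 0.845), and Pfdn2 was at 0.08 ± 0.04 (adjusted p = 0.824). Groups overlapped for all 6 prefoldin genes, while over all genes 10272 of 19938 had a higher mean in Dp5/Dp1.

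Among the phosducin-like proteins, which bind TRiC as cofactors, 3 of 4 had a higher mean, as had 10272 of all 19938 genes. Of the 3, Pdcl2 was dim, with a mean level of 4.73 and a difference of 0.012. Txndc9, a phosducin-like protein that slows the chaperonin, had the largest difference (0.11 ± 0.05, adjusted p = 0.808). The tubulin cofactors, which take tubulin over from TRiC, had a median of 0.02 over 7 genes, and Tbcc (0.10 ± 0.04, adjusted p = 0.818) and Tbca (0.14 ± 0.09, adjusted p = 0.848) had the largest differences. The testis paralogue Cct6b was dim, at 5.27 ± 0.02 and 5.24 ± 0.03 (SD, n = 5), and the BBS chaperonin-like genes Mkks, Bbs10 and Bbs12, related proteins that build the BBSome with TRiC, lay between -0.06 and 0.07.

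None of the measured clients passed the test. Actb, cytoplasmic beta actin, was at 13.71, 13.69, 13.68, 13.70 and 13.67 in controls and at 13.68, 13.64, 13.63, 13.69 and 13.70 in Dp5/Dp1 (-0.02 ± 0.03, adjusted p = 0.913). All 11 measured tubulin genes had a higher mean in Dp5/Dp1, by 0.0021 to 0.11 with a median of 0.06, and 2 had an unadjusted p under 0.05, Tuba4a (0.09 ± 0.03, adjusted p = 0.806) and Tubb2a (0.11 ± 0.05, adjusted p = 0.806). Of all genes, 3.39% were higher at that level. Tubulin genes share sequence, and 3 of the 14 listed had no probe set with a single symbol. The 14 WD repeat and other clients had a median of 0.0063, and the lowest p among them belonged to Gnb5, a G protein beta subunit of neurons (0.08 ± 0.04, adjusted p = 0.831).

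Other chaperone systems had lower medians. The cytosolic HSP70 and HSP90 system was at -0.02 over 20 genes, with the lowest p for Hspa4l, an HSP110 protein (-0.10 ± 0.05, adjusted p = 0.823). The lowest difference of this list, -0.42, belonged to the small heat shock protein Hspb1, which was at 9.92 in control 3 and between 7.91 and 8.97 on the other arrays. The mitochondrial and endoplasmic reticulum chaperones were at -0.05 over 8 genes, 7 with a lower mean. Hspa5, the HSP70 of the endoplasmic reticulum (BiP), was at 11.37, 11.07, 11.77, 11.97 and 11.64 in controls and at 10.95, 11.14, 11.18, 11.28 and 11.61 in Dp5/Dp1. Its groups overlapped, and its difference of -0.33 ± 0.16 did not pass (adjusted p = 0.824). Hsp90b1, the HSP90 of the same compartment, was at -0.16 ± 0.07 (adjusted p = 0.812). FCROS passed both as lower, and it passed 5.06% of all genes in either direction. Hspd1 and Hspe1, which form the mitochondrial chaperonin, were at -0.05 ± 0.07 and -0.05 ± 0.07.

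**Figure D5:**
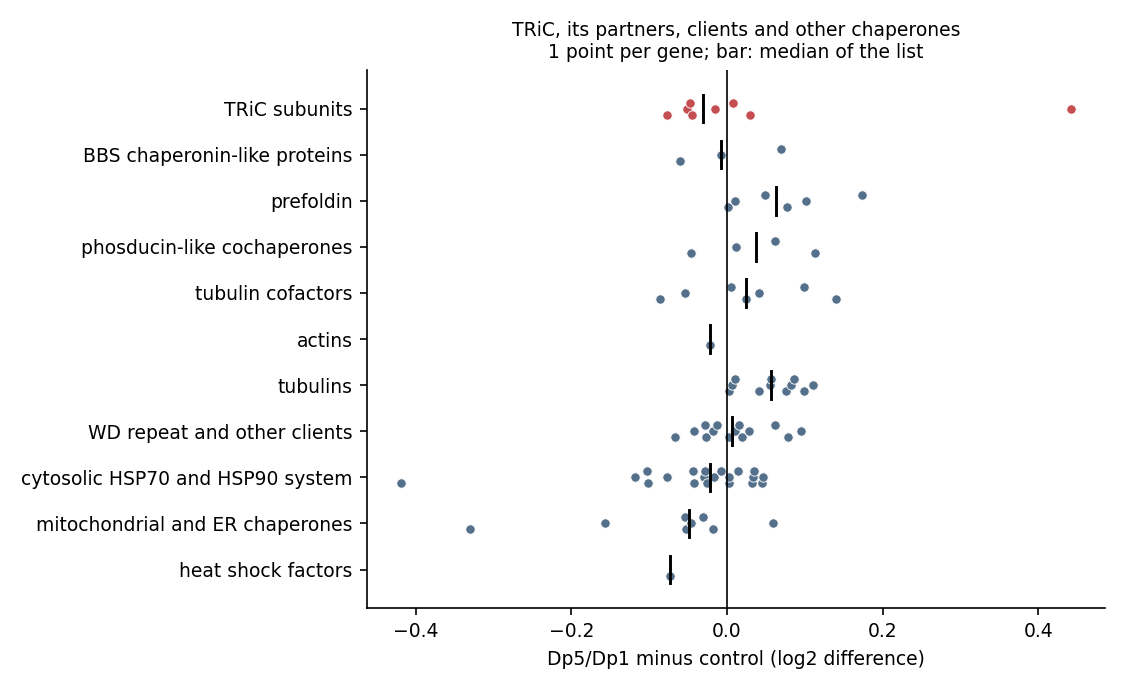
Log2 differences, Dp5/Dp1 minus control, of the TRiC subunits (red) and for the measured genes of 10 lists of partners, clients and other chaperones (blue); each point is 1 gene and the bar the median of its list. Cct8 at 0.44 stands apart from the other subunits, and all 11 tubulins and 6 prefoldins lie on the higher side of 0 without passing the test.

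All 9 measured markers of hippocampal neurons were in the brighter part of all genes, with a mean of 10.53 to 10.64 per array. So were 7 of 7 markers of astrocytes, 5 of 5 of oligodendrocytes, 5 of 5 of endothelial cells and 6 of 7 of microglia. Brightness of such markers therefore does not test the tissue label. None of these genes was called. At an unadjusted limma p under 0.05, 2 of 7 astrocyte markers (Slc1a2, Gja1) and 1 of 9 neuron markers (Lct) were lower. Cldn5, 1 of 5 endothelial markers, was higher at that level, and no marker of oligodendrocytes or microglia passed it. Over all genes 2.67% were lower and 3.39% higher. The groups of Slc1a2 lay apart, as did those of 0.321% of all genes in that direction. The 14 measured choroid plexus markers had a mean of 6.60 to 8.51 in controls and 6.71 to 8.12 in Dp5/Dp1, and the 9 medial habenula markers of 6.60 to 7.06 and 6.65 to 7.85, highest in Dp5/Dp1 mice 2 and 5. Of these, 13 of 14 choroid plexus markers had a lower mean in Dp5/Dp1 and 9 of 9 habenula markers a higher one, with 0 called. With both marker means as covariates the difference of Cct8 was 0.43 (limma adjusted p = 0.00767), and without those 2 mice it was 0.45 (adjusted p = 0.00841). In whole tissue, a change in the number of cells and a change in RNA per cell cannot be told apart.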

How the data were processed

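RNA of whole hippocampus (right and left) was hybridised to Affymetrix GeneChip Mouse Gene ST arrays. The authors normalized the arrays by RMA and deposited log2 expression values; the labels' processing notes name RMA, limma and mm10, without versions. RMA compresses differences of dim probe sets, and quantile normalization equalised the arrays, whose medians lay between 6.73 and 6.80. Of 35556 probe sets, 21789 had 1 gene symbol, 1621 several and 12146 none here. The probe set with the highest mean was read per gene, which left 19938 genes. Groups came from the condition label.

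Groups were compared with limma 3.58.1 (R 4.3.3; lmFit and eBayes without covariates, two-sided), and p-values were adjusted over all genes by Benjamini-Hochberg with a threshold of 0.05, to which "rose" and "called" refer. The study's FCROS was rewritten from its description and is an alternative, as are filters, normalizations, covariates, array weights, a block and arrays left out. The number of arrays limits the precision. The members and lists were chosen with earlier results of these data known. Genes named were all members, neighbours of Cct8, TRiC cofactors, and of other lists those called or with the 3 lowest p. Hspa1a, Dnajb1, Hspb1, Hsph1, Hspd1 and Hspe1 were chosen after their values were seen. Actg1, Hsp90ab1, Hsf1 and other genes without a probe set of a single symbol were not analysed here. Promoters came from RefSeq (GRCm38). Scripts were tested on simulated data.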

Additional observations from a re-analysis of the deposited data

Results flagged for a closer look

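Among the 8 subunit genes, their mean and balance, and 20 heat shock genes, examined in 60 groups of 5 arrays, 4 arrays stood apart from the rest of their group by Dixon's test, where chance gives about 1 in 20. None belonged to a TRiC subunit. Hspa1a was at 10.19 in control 3, against 8.63 in the next control. Dnajb1 was at 10.12 in the same mouse, against 8.96. Dnaja2, an HSP40 protein, was at 10.98 in Dp5/Dp1 mouse 5, against 10.85. Ptges3, the HSP90 cochaperone p23, was at 11.54 in Dp5/Dp1 mouse 1, against 11.68.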

How the results depend on the processing

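Cct8 rose and passed under all 21 alternatives (0.43 to 0.47; limma adjusted p 0.000117 to 0.0107), 0 of the 7 partners were called under any of them, and all 7 ratios to Cct8 passed in the 19 fits that tested them. The mean of the 7 ran from -0.055 to -0.0034 and the balance from 0.46 to 0.48 when arrays were left out. Only the sign of partners near 0 turned: Cct2 was at 0.0033 with array weights and at 0.021 without both habenula-rich Dp5/Dp1 mice, and when single arrays were left out Cct2 ran from -0.045 to 0.034, Cct3 from -0.024 to 0.075 and Cct4 from -0.057 to 0.068. FCROS passed 1008 genes, a number largely set by its cuts, and 5 partner genes (Pfdn5, Txndc9 and Tbca higher, Hspa5 and Hsp90b1 lower). Over all genes 41 were called, 26 with the replicate number as a block and 21 without the habenula-rich mice, which leaves 3 against 5 arrays. The cause of these shifts was not tested. Deviations of same-numbered arrays, taken over all genes, correlated from -0.35 to 0.29, 1 of 5 above 0.1. The most variable genes weigh most in that correlation, so it cannot decide whether replicate numbers pair the arrays. The block left the calls of Cct8 and its 7 partners as they were (Cct8 0.44, limma adjusted p = 0.0107). It ended those of Rwdd2b, Usp16, Bach1 and Grik1, and so did leaving out the habenula-rich mice, which also ended that of Ltn1 (0.34, adjusted p = 0.0548). Usp16 was also lost with arrays centred on genes outside the interval (adjusted p = 0.051) and with array weights (adjusted p = 0.0654), and with both marker means as covariates Rwdd2b, Usp16 and Bach1 were lost (adjusted p 0.0934, 0.248 and 0.0506).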

Other observations

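The genes whose deviations from the group means were most like the mean of the 7 2-copy subunits, among 11572 brighter genes over the 10 arrays, were Kpna1, an importin alpha (Pearson r 0.98, Spearman rho 0.99), Heatr1, a factor of ribosome synthesis (0.96 and 0.93), Sec23ip, a protein of endoplasmic reticulum exit sites (0.96 and 0.95), Kansl1l (0.95 and 0.93) and Ranbp6, an importin beta relative (0.95 and 0.90). For Cct8 they were Nalcn, a sodium leak channel (0.97 and 0.98), Zfp189 (0.95 and 0.95), Cadps2, a priming factor of dense-core vesicles (0.95 and 0.98), Zfp334 (0.95 and 0.93) and Tsc22d2 (0.94 and 0.98). The 2 lists shared no gene. With 10 arrays and 11572 genes, values this high are a ranking and carry no test, and none of the 10 genes passed in Dp5/Dp1 against control (limma adjusted p 0.806 to 0.991).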
